A study of Mus musculus with 27 samples.

Results

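Cell cycle and proliferation genes were followed across 3 diets in epididymal adipose tissue, or EAT, of mice. The group was a list of 36 genes of DNA replication, cell cycle control and mitosis, matched by symbol to the annotation of the array. Of the 36 genes, 35 had a probe set annotated to 1 gene and were measured, out of 18193 genes measured in all, and Ccnb1, a mitotic cyclin, was not analysed here. Where a gene had several such probe sets, the one with the highest mean over the 27 arrays stood for it. The list was not chosen by the values of single genes, but it was set with earlier results of the same arrays known.

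All mice were male C57BL/6J mice, 5 weeks old on arrival, which were acclimated for 1 week, kept 3 per cage and fed their diet for 18 weeks. The quercetin mice (n = 9) received a Western diet with 0.05% quercetin, a plant flavonol. The Western mice (n = 9) received the same Western diet without it, with 39.9% of energy from fat, 34.0% of energy from sucrose, 20% butter, 1% soy oil and 0.15% cholesterol. The control mice (n = 9) received the AIN93G diet. Cages were not given for single mice, so p-values measure the spread between mice whatever cage they shared. RNA from the EAT of each mouse was read on 1 Affymetrix Mouse Genome 430 2.0 array, and all levels below are log2 signals after quantile normalization, so that a difference of 1 is a 2-fold change in signal.

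A dividing cell copies its DNA once per cycle. Origins are first licensed by loading the MCM helicase, the copied strands are held by a sliding clamp, and cyclins with their kinase then drive the cell into mitosis, where kinases, motors and a checkpoint separate the chromosomes. Most transcripts of the list are high only in cycling cells and low in resting ones, so their level in a whole tissue reads both how many cells cycle and how much RNA each holds. Mature adipocytes do not divide, and in fat of obese mice the cells known to cycle include tissue macrophages, which multiply in place, and adipocyte progenitors, among other cells.

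The markers of other tissues were checked before the results. Adipocyte markers averaged between 12.29 and 12.56 in quercetin mice, between 12.21 and 12.49 in Western mice and between 12.06 and 12.52 in control mice, so all 27 arrays carried fat RNA. The extraction notes name liver where all other labels name EAT, and the mean over 9 measured liver markers lay over 2 log2 units above the median of the arrays on 3 quercetin, 4 Western and 2 control arrays, with the highest value of 10.98 in Western mouse 4. Control mouse 6 stood apart with a mean of 9.68 over 14 meiotic germ cell markers and of 12.65 over 7 haploid germ cell markers, against medians of 3.39 and 3.94 over all arrays. Quercetin mouse 5 reached 7.33 for the meiotic list. Control mouse 3 had a mean of 6.52 over 14 B cell and lymph node markers, against a median of 4.09. Since testis and lymph node hold many dividing cells of their own, the counts of genes that passed are given below for all 27 arrays and again without these 3 arrays (control 3, control 6 and quercetin 5) where that changed them, a choice made after the values were seen.

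The Western diet raised 14 of the 35 measured cell cycle genes above the control diet and lowered none (limma, adjusted p under 0.05). Over all genes, 11.3% were higher and 6.42% were lower in Western than in control mice. The median log2 fold change of the 35 genes was 0.85, against 0.00 over all genes, and 33 of the 35 values were positive. The 14 genes came from every step of the cycle, namely the licensing and helicase genes Mcm3, Mcm5, Mcm6 and Cdt1, the nucleotide and clamp genes Rrm2 and Pcna, the cyclin and kinase genes Ccna2, Cdk1 and Ube2c, the mitotic kinases Aurkb and Melk, and Top2a, Mki67 and Cenpa of the chromosomes. In bulk tissue, fewer cells of a type and less RNA per cell cannot be told apart.

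Leaving out control mouse 6 alone brought the number to 28 higher and 0 lower, where 11.6% of all genes were higher, and the 14 genes called on all arrays were all among the 28. Without control 3, control 6 and quercetin 5, 29 of 35 were higher and 0 lower, 12.9% of all genes were higher and 11.4% lower, and the median was 1.15. The 6 genes that did not pass then were Mcm2, Mcm4, Mcm7, Cdc6, Tyms and Foxm1. Control 6 and control 3 had the highest means of the control mice over the 35 genes (7.54 and 6.60), and no Western array was left out. Leaving them out thus raised the average Western minus control value by construction. Western mouse 7, with a haploid germ cell marker mean of 8.77, was kept. Macrophage markers moved with the cell cycle genes, since 14 of 18 were higher in Western than in control mice and 0 were lower (15 and 0 without the 3 arrays), and their part in the counts was not tested beyond the relations given further on.

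**Figure D1:**
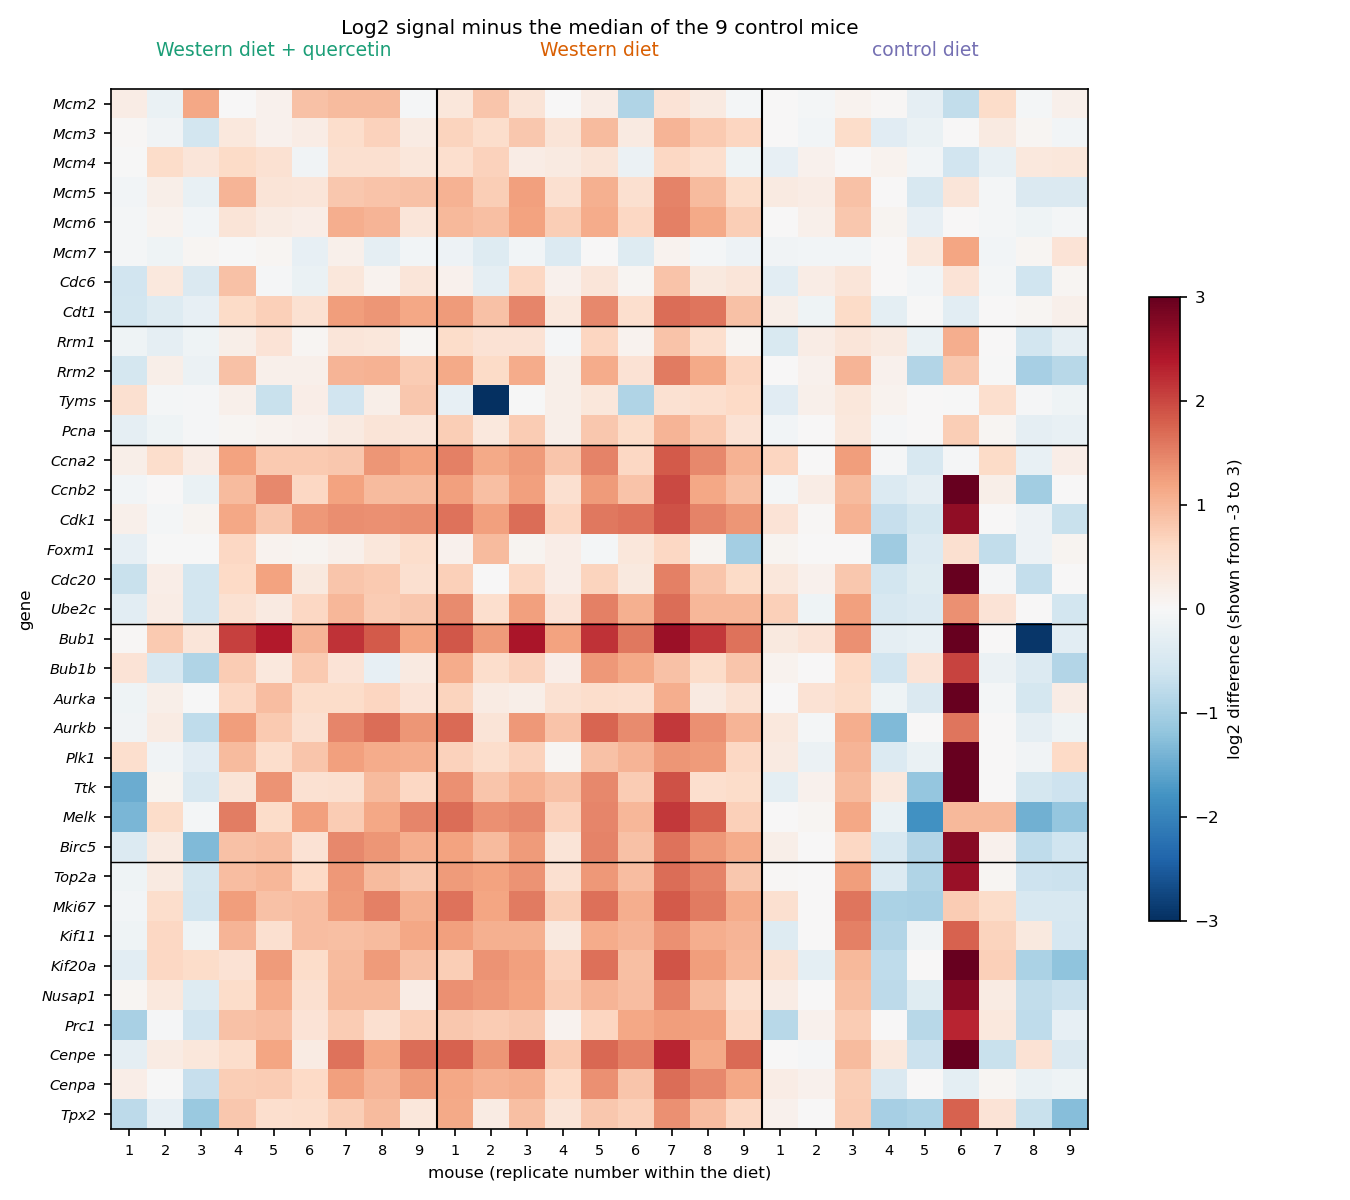
Log2 signal of each of the 35 measured cell cycle genes (rows, in 5 role groups) in each of the 27 mice (columns, by diet and replicate number), minus the median of the 9 control mice for that gene. Western mice are red in most rows, quercetin mice 1, 2 and 3 are near white or blue in most mitotic rows, and control mouse 6 is dark red in the mitotic rows, with Bub1 at 9.04 against at most 5.07 in the other 8 control mice.

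Between quercetin and Western mice, no cell cycle gene passed the test on all 27 arrays (limma, 0 higher and 0 lower). Few genes passed anywhere in this comparison, 0.253% of all genes being higher and 0.0824% lower. At an unadjusted p under 0.05, 10 of 35 were lower and 0 higher, where 1170 of the 18193 genes were lower and 1327 higher. The log2 fold changes of 30 of the 35 genes were negative, with a median of -0.52 against 0.02 over all genes, and the extremes were -0.83 and 0.35. The smallest adjusted p values were 0.052 for Pcna, 0.063 for Mcm6 and 0.085 for Mcm3. Without control 3, control 6 and quercetin 5, 2 genes fell in quercetin mice, Mcm6 and Pcna, where 0.506% of all genes were lower, and the median was -0.57. In that fit 21 of 35 were lower at an unadjusted p under 0.05, where 1442 of the 18193 genes were lower and 1698 higher.

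Set against the control diet, the quercetin diet had 0 of 35 genes higher and 0 lower on all arrays (limma), where 5.01% of all genes were higher and 1.65% lower. At an unadjusted p under 0.05, 6 of 35 were higher and 0 lower, where 2652 of the 18193 genes were higher and 1339 lower. The 6 thus lay near the share over all genes. The median log2 fold change was 0.32, against 0.03 over all genes. Without the 3 arrays, 10 genes were higher in quercetin than in control mice, Mcm5, Ccna2, Ccnb2, Cdk1, Bub1, Top2a, Mki67, Kif11, Kif20a and Nusap1, where 6.44% of all genes were higher, and the median was 0.59. Without control mouse 6 alone, the number was 2 of 35, near the share over all genes, of which 889 of 18193 were higher. At an unadjusted p under 0.05 (limma), 20 of 35 were then higher and 0 lower, with a median of 0.47. Over all genes, 2506 of 18193 were then higher and 1856 lower. Without the 3 arrays, 22 of 35 were higher at that limit and 0 lower, where 2711 of all genes were higher and 1971 lower. In the test over the 3 diets together, 13 of 35 genes passed, and 16% of all genes did. Without the 3 arrays 29 of 35 passed. The share over all genes is not given for that fit, so the rise from 13 to 29 is no result about the list. The comparisons share the Western and control arrays, so their counts do not stand independently of each other.

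**Figure D2:**
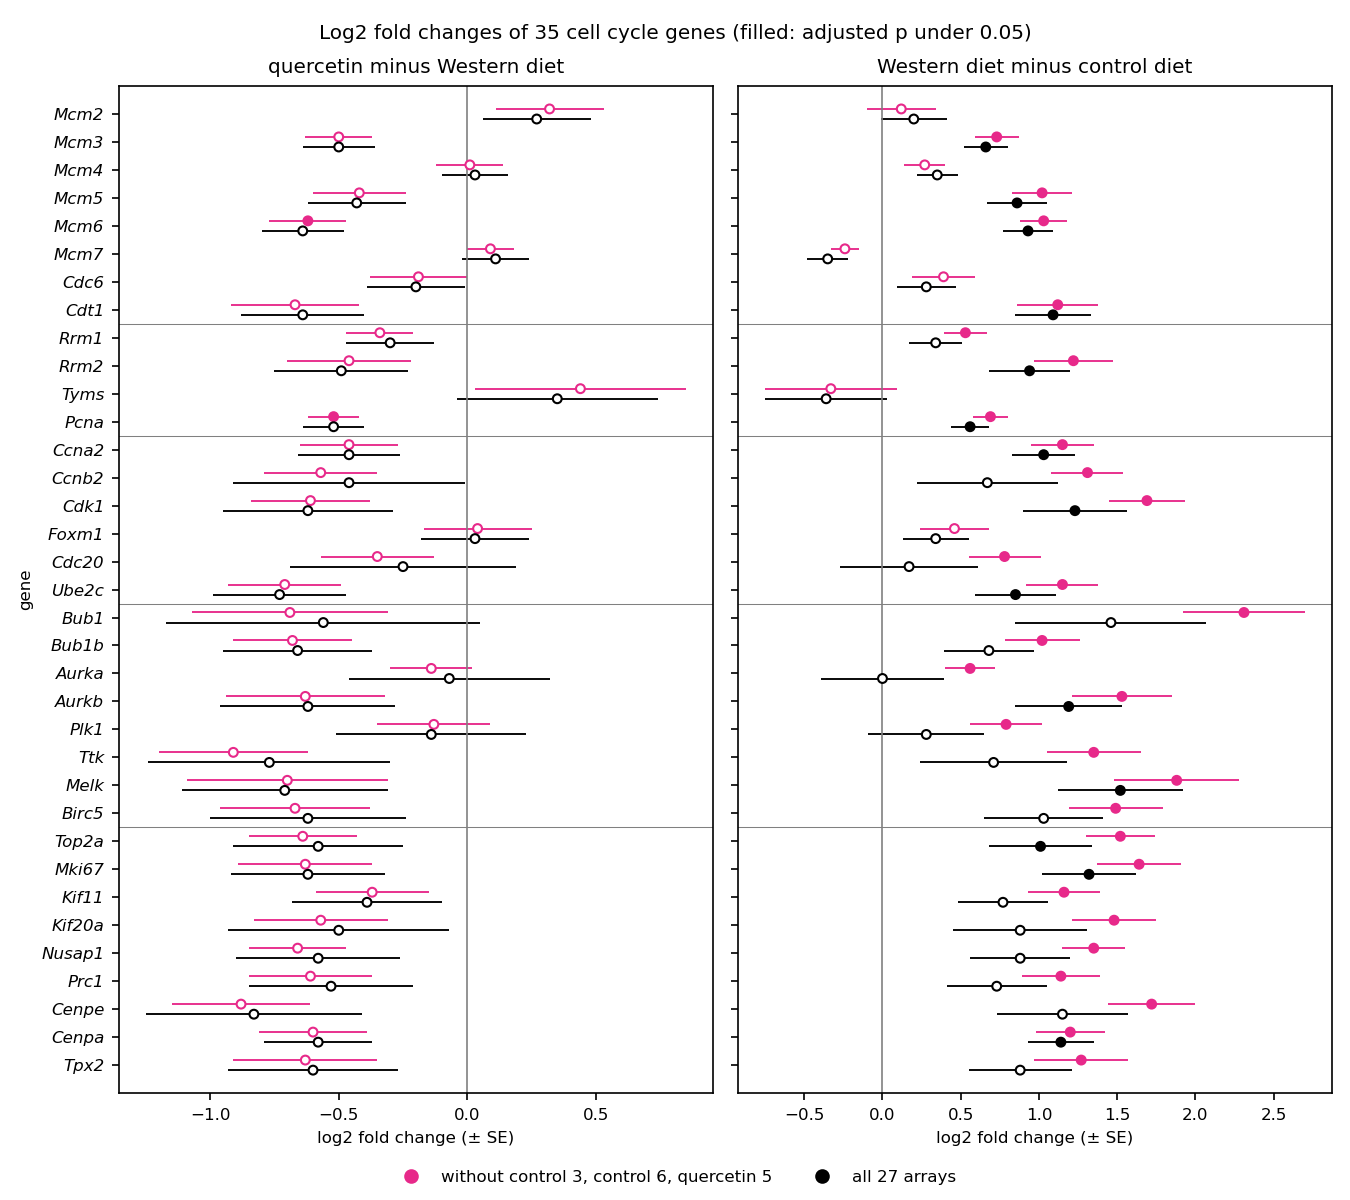
Log2 fold change with its standard error for each of the 35 genes, quercetin minus Western diet on the left and Western diet minus control diet on the right, from all 27 arrays (black) and without control 3, control 6 and quercetin 5 (pink). Filled points had an adjusted p under 0.05, which was so for 0 and 2 genes on the left and for 14 and 29 genes on the right.

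The promoters of the 4 genes with the smallest p over the 3 diets are shown because cell cycle genes are known to be timed through short promoter words, the E2F word in genes of replication, and the CHR (cell cycle genes homology region) with CCAAT boxes in genes of mitosis. They are RefSeq sequences of build GRCm38.p6, 250 bases before to 50 bases after the start of the gene, read 5′ to 3′ on the strand of the gene. Mcm6 is at chr1:128359656-128359955 and Mcm3 at chr1:20820263-20820562, both on the minus strand, Cenpa is at chr5:30666636-30666935 on the plus strand, and Pcna is at chr2:132253131-132253430 on the minus strand. Capitals mark the words searched on both strands, which were TTTGAA and TTCGAA for the CHR, CCAAT for the CCAAT box, and TTTCCCGC, TTTCGCGC, TTTGCCGC and TTTGGCGC for E2F, and E2F words overlap each other in Mcm6.
Mcm6: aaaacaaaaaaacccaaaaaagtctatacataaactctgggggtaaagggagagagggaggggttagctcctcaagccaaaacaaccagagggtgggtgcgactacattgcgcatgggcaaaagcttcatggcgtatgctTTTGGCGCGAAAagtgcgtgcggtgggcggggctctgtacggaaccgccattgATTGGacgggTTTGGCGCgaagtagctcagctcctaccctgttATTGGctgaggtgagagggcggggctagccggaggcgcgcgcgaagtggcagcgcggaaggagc
Cenpa: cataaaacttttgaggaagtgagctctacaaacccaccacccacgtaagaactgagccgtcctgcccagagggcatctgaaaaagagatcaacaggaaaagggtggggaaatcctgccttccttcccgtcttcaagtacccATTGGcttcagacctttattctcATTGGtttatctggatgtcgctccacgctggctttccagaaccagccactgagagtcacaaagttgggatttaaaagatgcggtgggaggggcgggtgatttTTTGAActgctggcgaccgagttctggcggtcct
Pcna: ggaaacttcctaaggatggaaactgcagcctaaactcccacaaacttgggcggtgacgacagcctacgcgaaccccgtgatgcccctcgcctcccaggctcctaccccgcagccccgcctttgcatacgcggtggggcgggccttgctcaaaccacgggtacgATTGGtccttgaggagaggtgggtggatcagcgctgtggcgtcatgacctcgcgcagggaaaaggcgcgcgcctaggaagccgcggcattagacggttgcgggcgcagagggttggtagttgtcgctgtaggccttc
Mcm3: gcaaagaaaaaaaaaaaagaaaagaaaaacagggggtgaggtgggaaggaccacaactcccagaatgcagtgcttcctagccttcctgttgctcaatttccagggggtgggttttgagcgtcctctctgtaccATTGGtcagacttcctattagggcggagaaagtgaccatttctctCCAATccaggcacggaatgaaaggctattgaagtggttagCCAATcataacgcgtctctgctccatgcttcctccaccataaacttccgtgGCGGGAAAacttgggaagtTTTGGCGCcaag

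The Mcm6 promoter held 3 E2F words and 2 CCAAT boxes, the Mcm3 promoter 2 and 3. Cenpa held 1 CHR word and 2 CCAAT boxes, and Pcna held 1 CCAAT box. Of the 30 cell cycle genes with a promoter in the table (Ccnb1 among them), 7 held an E2F word (23.3%), against 2.3% of 27025 promoters of all genes. A CHR word was in 16 of 30 (53.3%), against 19.4%, and a CCAAT box in 24 of 30 (80.0%), against 37.9%. A match to these letters is a description of the sequence and shows no binding.

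Among the 8 licensing and helicase genes, Mcm3, Mcm5, Mcm6 and Cdt1 rose in Western mice, and none of the other 4 passed. Mcm6 (probe set 1416251_at), a subunit of the helicase ring, had a lowest, median and highest level of 7.20, 7.53 and 8.38 in quercetin mice, 7.90, 8.27 and 8.81 in Western mice and 7.05, 7.29 and 8.09 in control mice. Of the 9 Western mice, 6 lay above every control mouse, and 7 of the 9 quercetin mice lay below every Western mouse. Its log2 fold change was 0.93 ± 0.16 for Western minus control diet (SE, adjusted p = 0.00013) and -0.64 ± 0.16 for quercetin minus Western diet (adjusted p = 0.063). Without the 3 arrays, these were 1.03 ± 0.15 (adjusted p = 4.5e-05) and -0.62 ± 0.15 (adjusted p = 0.035). With the mean over its 3 probe sets in place of the brightest, neither passed, at 0.20 (adjusted p = 0.65) and -0.04 (adjusted p = 0.98). One of the 3, with a mean level of 1.95, was at -1.13 for Western minus control diet, and the others were at 0.93 and 0.80.

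Mcm3 (1420028_s_at), of the same ring, lay at 6.47, 7.23 and 7.70 in quercetin mice, at 7.29, 7.68 and 8.03 in Western mice and at 6.68, 7.01 and 7.55 in control mice. Here 6 Western mice were above every control mouse and 6 quercetin mice were below every Western mouse. The log2 fold changes were 0.66 ± 0.14 for Western minus control diet (adjusted p = 0.001) and -0.50 ± 0.14 for quercetin minus Western diet (adjusted p = 0.085). Cdt1 (1424143_a_at), which loads the helicase at origins, lay at 6.32, 7.43 and 8.18 in quercetin mice, at 7.17, 8.13 and 8.54 in Western mice and at 6.55, 6.86 and 7.44 in control mice. It rose in Western mice (1.09 ± 0.24, adjusted p = 0.0015), with 7 of 9 above every control mouse, while the values of quercetin mice reached from below every control mouse into the Western range (-0.64 ± 0.24 against the Western diet, adjusted p = 0.20).

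Mcm5 rose by 0.86 ± 0.19 in Western mice (adjusted p = 0.002). The other measured subunits of the ring did not pass. Mcm2 had a log2 fold change of 0.20 ± 0.21 for Western minus control diet (adjusted p = 0.55) and Mcm4 of 0.35 ± 0.13 (adjusted p = 0.062), and neither passed without the 3 arrays. A second Mcm2 probe set, with a mean level of 5.90 against 6.61 for the one used, was at 0.74 for Western minus control diet and at -0.72 for quercetin minus Western diet, where the one used was at 0.27. Mcm7, one of the 2 measured genes with a negative value, was at -0.35 ± 0.13 (adjusted p = 0.056), and its level of 10.38 in control mouse 6, against at most 9.59 in the other control mice, was part of this, since the value without that mouse was -0.22. Cdc6, which loads the ring together with Cdt1, was at 0.28 ± 0.19 (adjusted p = 0.33).

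Of the 4 genes of nucleotide supply and the clamp, Rrm2 and Pcna rose in Western mice. Pcna (1417947_at), the sliding clamp of the replication fork, lay at 10.10, 10.47 and 10.74 in quercetin mice, at 10.53, 11.09 and 11.38 in Western mice and at 10.10, 10.36 and 11.09 in control mice. The highest control value was that of control mouse 6. Of the Western mice 4 were above all control mice and 7 were above all but control mouse 6, and 6 quercetin mice lay below all Western mice. Its log2 fold changes were 0.56 ± 0.12 for Western minus control diet (adjusted p = 0.0015), -0.52 ± 0.12 for quercetin minus Western diet (adjusted p = 0.052) and 0.04 ± 0.12 for quercetin minus control diet (adjusted p = 0.90). Without the 3 arrays, quercetin minus Western diet was -0.52 ± 0.10 (adjusted p = 0.016).

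Rrm2 (1434437_x_at), the regulated subunit of ribonucleotide reductase, lay at 6.00, 6.70 and 7.57 in quercetin mice, at 6.70, 7.64 and 8.10 in Western mice and at 5.54, 6.53 and 7.56 in control mice, and rose by 0.94 ± 0.26 in Western mice (adjusted p = 0.012). It did not pass without normalization between arrays (adjusted p = 0.070), by the test of the methods (0.076) or without the arrays high in liver markers (0.065). The ranges of the quercetin and Western mice overlapped for 5 of the 9 quercetin mice, and the value between them was -0.49 ± 0.26 (adjusted p = 0.43). Rrm1 (1415878_at), the other subunit, lay at 7.01, 7.34 and 7.68 in quercetin mice, at 7.23, 7.70 and 8.13 in Western mice and at 6.71, 7.27 and 8.35 in control mice, and did not pass on all arrays (0.34 ± 0.17, adjusted p = 0.16). Without the 3 arrays it passed for Western minus control diet (0.53 ± 0.14, adjusted p = 0.006). Tyms, the enzyme that makes thymidylate, was dim, with a mean level of 3.75 over the 27 arrays, and had a log2 fold change of -0.36 ± 0.39 for Western minus control diet (adjusted p = 0.57).

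**Figure D3:**
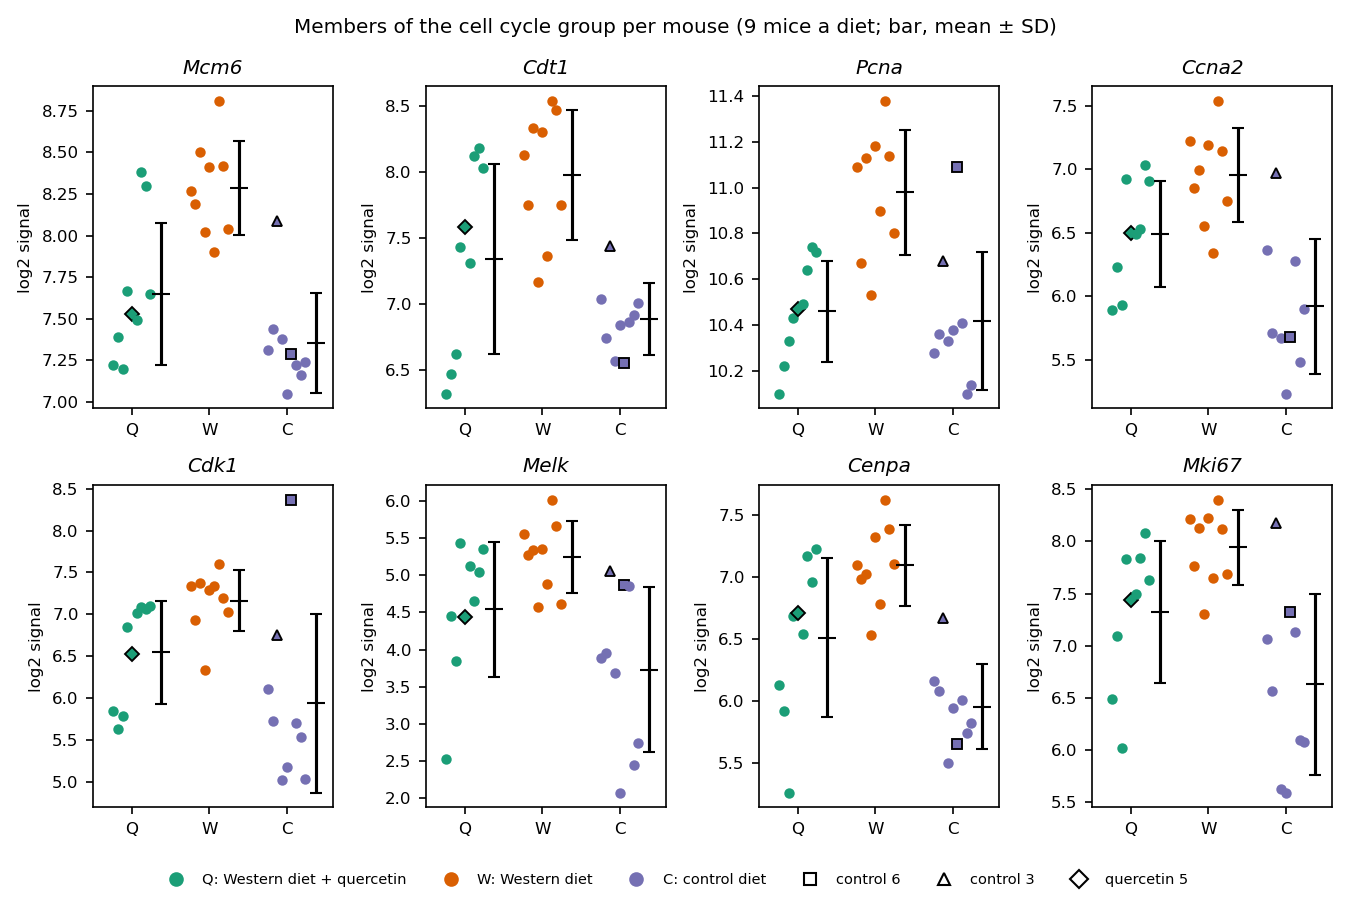
Log2 signal of 8 cell cycle genes in each mouse, with the mean and SD of the 9 mice of each diet beside the points, for quercetin (Q), Western (W) and control (C) mice. Western mice lie highest as a group in each panel, and quercetin mice spread widely (Mki67 between 6.02 and 8.08). Control mouse 6 is far above the other control mice for Cdk1 (8.37 against at most 6.75). It is the highest control mouse by less for Pcna (11.09 against at most 10.68) and is not the highest for Mcm6, Ccna2 or Cenpa.

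Of the 6 measured genes of cyclins, their kinase, their regulator and their degradation, Ccna2, Cdk1 and Ube2c rose in Western mice. Ccna2 (1417910_at), the cyclin of S and G2 phase, lay at 5.89, 6.50 and 7.03 in quercetin mice, at 6.34, 6.99 and 7.54 in Western mice and at 5.23, 5.71 and 6.97 in control mice. Its highest control value came from control mouse 3, and control mouse 6 lay at 5.68. The log2 fold change was 1.03 ± 0.20 for Western minus control diet (2.04-fold, adjusted p = 7e-04) and -0.46 ± 0.20 for quercetin minus Western diet (adjusted p = 0.30).

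Cdk1 (1448314_at), the kinase that starts mitosis, lay at 5.63, 6.85 and 7.10 in quercetin mice, at 6.34, 7.29 and 7.60 in Western mice and at 5.02, 5.70 and 8.37 in control mice. Control mouse 6 held the highest of all 27 values, and 8 of 9 Western mice were above the other 8 control mice. The log2 fold change for Western minus control diet was 1.23 ± 0.33 on all arrays (2.34-fold, adjusted p = 0.0098) and 1.69 ± 0.24 without the 3 arrays (3.23-fold, adjusted p = 2.6e-05), and quercetin minus Western diet was -0.62 ± 0.33 (adjusted p = 0.43). By the test of the methods Western minus control diet did not pass (adjusted p = 0.055), nor did it without the arrays high in liver markers (0.11). Ube2c (1452954_at), which marks cyclins for degradation, lay at 5.97, 6.98 and 7.52 in quercetin mice, at 6.92, 7.59 and 8.19 in Western mice and at 5.97, 6.52 and 7.88 in control mice. It rose by 0.85 ± 0.26 in Western mice (adjusted p = 0.021), and quercetin minus Western diet was -0.73 ± 0.26 (adjusted p = 0.17), with 4 quercetin mice below every Western mouse. Its rise did not pass in the same 2 settings (adjusted p = 0.052 and 0.17) or without normalization between arrays (0.078).

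Ccnb2, a mitotic cyclin, and Cdc20, which activates the complex that ends mitosis, turned on control mouse 6. Its levels were 9.88 for Ccnb2 and 10.79 for Cdc20, against at most 6.39 and 7.27 in the other control mice. Ccnb2 had a log2 fold change of 0.67 ± 0.45 for Western minus control diet on all arrays (adjusted p = 0.33) and of 1.31 ± 0.23 without the 3 arrays (adjusted p = 2e-04). Cdc20 was at 0.17 ± 0.44 (adjusted p = 0.84) and at 0.78 ± 0.23 (adjusted p = 0.014). Foxm1, the transcription factor of genes of G2 and mitosis, was at 0.34 ± 0.21 (adjusted p = 0.28) and passed in neither.

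Among the 8 mitotic kinases and checkpoint genes, Aurkb and Melk rose in Western mice on all arrays and all 8 did without the 3 arrays. Melk (1416558_at), a kinase of cycling cells, lay at 2.53, 4.66 and 5.43 in quercetin mice, at 4.57, 5.34 and 6.02 in Western mice and at 2.07, 3.89 and 5.06 in control mice. Its log2 fold change of 1.52 ± 0.40 for Western minus control diet (2.88-fold, adjusted p = 0.0079) was the highest of the 35 genes on all arrays, and 6 of the 9 Western mice were above every control mouse. Quercetin minus Western diet was -0.71 ± 0.40 (adjusted p = 0.46), and the Western minus control value did not pass without the arrays high in liver markers (1.67, adjusted p = 0.090).

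Aurkb (1424128_x_at), the kinase of the chromosomal passenger complex, lay at 3.58, 5.12 and 6.01 in quercetin mice, at 4.73, 5.70 and 6.46 in Western mice and at 3.01, 4.34 and 5.95 in control mice, and rose by 1.19 ± 0.34 in Western mice (adjusted p = 0.014). Of the 9 Western mice, 3 lay above every control mouse, and quercetin minus Western diet was -0.62 ± 0.34 (adjusted p = 0.44). Its rise did not pass with a floor of 32 (0.54, adjusted p = 0.051), by the test of the methods (adjusted p = 0.058) or without the arrays high in liver markers (0.21). Birc5 (1424278_a_at), known as survivin and part of the same complex, lay at 4.31, 6.53 and 7.08 in quercetin mice, at 6.03, 6.85 and 7.28 in Western mice and at 4.76, 5.64 and 8.38 in control mice. It did not pass on all arrays (1.03 ± 0.38, adjusted p = 0.056), and passed without the 3 arrays (1.49 ± 0.30, adjusted p = 0.00081), 8 of 9 Western mice being above the other 8 control mice.

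The spindle checkpoint kinase Bub1 had the widest spread. It lay at 3.73, 4.87 and 6.08 in quercetin mice, at 4.90, 5.56 and 6.25 in Western mice and at 0.77, 3.69 and 9.04 in control mice, so that the Western minus control value was 1.46 ± 0.61 on all arrays (adjusted p = 0.097) and 2.31 ± 0.39 without the 3 arrays (adjusted p = 0.00014). Aurka, the kinase of the spindle poles, had a Western minus control value of 0.00 ± 0.39 on all arrays (adjusted p = 1) and of 0.56 ± 0.16 without them (adjusted p = 0.013). The checkpoint genes Bub1b and Ttk and the kinase Plk1 did not pass on all arrays and passed without control mouse 6, with values of 1.02, 1.35 and 0.79 without the 3 arrays. With all arrays kept and weighted, Bub1b and Ttk passed (adjusted p = 0.0061 and 0.011).

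Of the 9 chromosome and spindle genes, Top2a, Mki67 and Cenpa rose in Western mice on all arrays, and all 9 rose without the 3 arrays. Cenpa (1450842_a_at), the histone H3 variant of centromeres, lay at 5.26, 6.68 and 7.22 in quercetin mice, at 6.53, 7.09 and 7.62 in Western mice and at 5.50, 5.94 and 6.67 in control mice. The Western and control ranges overlapped by a single mouse on each side, since 8 of 9 Western mice were above every control mouse. The log2 fold change was 1.14 ± 0.21 for Western minus control diet (2.20-fold, adjusted p = 0.00033), and control mouse 6, at 5.65, was among the low control mice. Quercetin minus Western diet was -0.58 ± 0.21 (adjusted p = 0.18).

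Mki67 (1426817_at), the standard marker of cycling cells, lay at 6.02, 7.50 and 8.08 in quercetin mice, at 7.30, 8.12 and 8.40 in Western mice and at 5.59, 6.57 and 8.18 in control mice. Its highest control value was that of control mouse 3, and control mouse 6 lay at 7.32. The log2 fold change was 1.32 ± 0.30 for Western minus control diet (2.49-fold, adjusted p = 0.0022), and 1.64 ± 0.27 without the 3 arrays (3.11-fold, adjusted p = 0.00012). Quercetin minus Western diet was -0.62 ± 0.30 (0.650-fold, adjusted p = 0.35), and quercetin minus control diet was 0.70 ± 0.30 (adjusted p = 0.16). Only quercetin mice 1, 2 and 3 lay below every Western mouse, and the other 6 lay within the Western range.

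Top2a (1454694_a_at), the topoisomerase that untangles copied chromosomes, lay at 5.91, 7.23 and 7.72 in quercetin mice, at 6.90, 7.70 and 8.10 in Western mice and at 5.52, 6.43 and 9.01 in control mice. Control mouse 6 held the highest value, and 5 Western mice were above the other 8 control mice. Western minus control diet was 1.01 ± 0.33 on all arrays (adjusted p = 0.034) and 1.52 ± 0.22 without the 3 arrays (adjusted p = 3.6e-05), and quercetin minus Western diet was -0.58 ± 0.33 (adjusted p = 0.47). The Western minus control call was lost when any 1 of control mice 4, 5, 8 and 9 or Western mice 1, 3, 5, 7 and 8 was left out (values 0.88 to 1.00), and with the mean over its probe sets (0.49, adjusted p = 0.055). It was also lost without normalization between arrays, with a floor of 32, by the test of the methods, with only the 2 diets in the fit, with a replicate block (adjusted p = 0.054) and without the arrays high in liver markers (adjusted p = 0.20). The motors Kif11, Kif20a and Cenpe and the spindle proteins Nusap1, Prc1 and Tpx2 did not pass on all arrays, with Western minus control values between 0.73 for Prc1 and 1.15 for Cenpe, and passed without the 3 arrays, with values between 1.14 for Prc1 and 1.72 for Cenpe.

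Control mouse 6 split the list by role. For 15 of the 35 genes its level lay more than 2 log2 units above the median of the other 8 control mice, and all 15 were cyclin, kinase, checkpoint or spindle genes. The difference was 5.46 for Bub1, 4.47 for Ccnb2, 4.35 for Cdc20, 4.32 for Aurka, 4.29 for Ttk and 4.02 for Kif20a. For 10 genes the difference was under 0.5, among them Mcm2 (-0.75), Mcm6 (0.01), Ccna2 (-0.13) and Cenpa (-0.32). The same array had the highest means of all for haploid and meiotic germ cell markers, and how much of its cell cycle signal came from them was not tested. Quercetin mouse 5, the other array high in meiotic markers, was the highest quercetin mouse for 9 of the 35 genes.

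**Figure D4:**
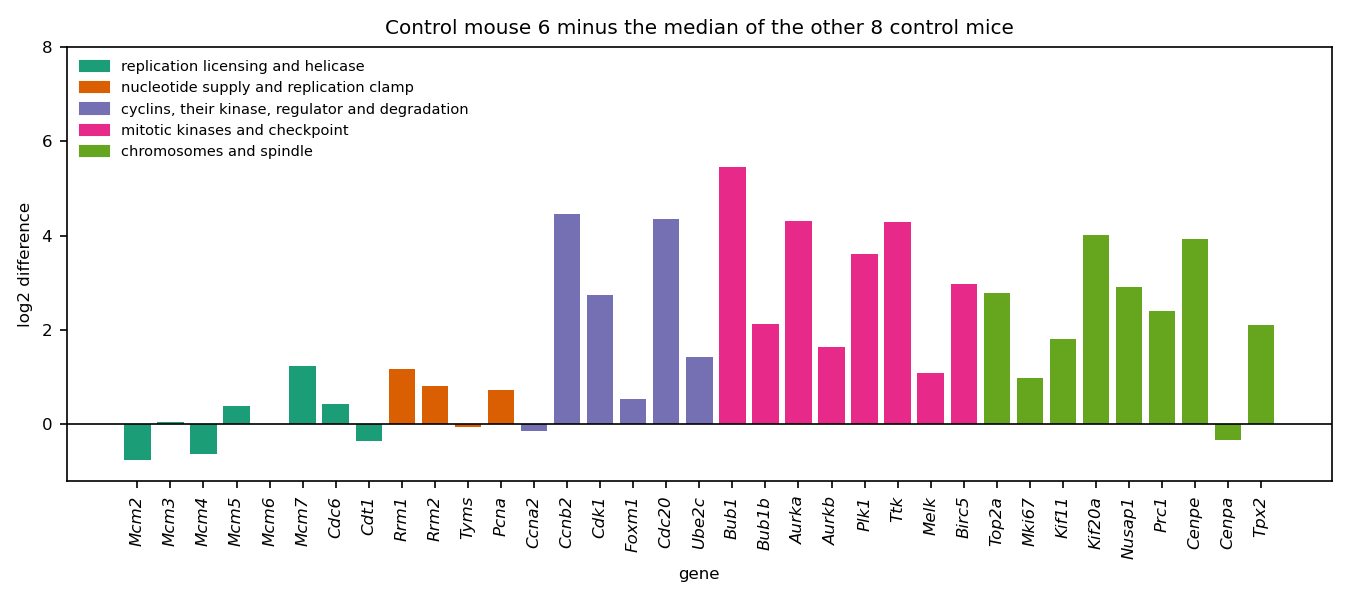
Log2 signal of control mouse 6 minus the median of the other 8 control mice for each of the 35 genes, coloured by role. The bars reach 5.46 for Bub1 and stay at or under 1.23 for the licensing and helicase genes.

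Within each diet most pairs of the genes varied together from mouse to mouse, less so among the replication genes (licensing, helicase, nucleotide and clamp). Among these the median Pearson correlation was 0.33 in quercetin mice, 0.73 in Western mice and 0.31 in control mice (0.35 without mouse 6). Among the other genes, those of mitosis, it was 0.77, 0.67 and 0.80 (0.67 without mouse 6). Over the 595 pairs of the 35 genes, the median Pearson correlation across 9 mice was 0.71 in quercetin mice, 0.67 in Western mice and 0.60 in control mice, and it was 0.59 over the 8 control mice without mouse 6. These points share an array and its normalization, so the correlations are descriptions and were given no test. When the deviations from the diet means of 26 mice (without control mouse 6) were set against the mean of the other 34 genes, Top2a followed it most closely (r = 0.95), then Mcm5 and Mki67 (both r = 0.93), while Mcm7 (0.02), Tyms (0.11), Mcm2 (0.12), Mcm4 (0.16) and Foxm1 (0.30) followed it least. These 5 were also among the genes that did not pass for Western minus control diet in either fit.

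The same mice were high or low for many genes. Western mouse 7 was the highest Western mouse for 30 of the 35 genes and Western mouse 4 the lowest for 21. Quercetin mice 1, 2 and 3 were the 3 lowest quercetin mice for 23 of the 35 genes. Averaged over the 35 genes, these mice lay at 5.60, 5.95 and 5.59, the other 6 quercetin mice lay between 6.30 and 6.68, Western mice between 6.23 and 7.23, and control mice other than mouse 6 between 5.37 and 6.60. Western mouse 4 also had the highest liver marker mean, and Western mouse 7 a haploid germ cell marker mean of 8.77. Without the 9 arrays high in liver markers, 8 genes were higher in Western than in control mice and 0 were lower, where 6.23% of all genes were higher.

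Macrophage genes were read beside them because macrophages are among the cells known to cycle in obese fat. The mean over 18 macrophage markers lay between 8.58 and 9.70 in quercetin mice, between 9.13 and 10.23 in Western mice and between 8.04 and 9.26 in control mice. Adgre1, which codes for F4/80, the surface marker of mouse macrophages, lay at 8.97, 9.66 and 10.48 in quercetin mice, at 9.53, 10.72 and 11.06 in Western mice and at 8.21, 8.53 and 9.26 in control mice. All 9 Western mice were above every control mouse, and the log2 fold changes were 1.86 ± 0.22 for Western minus control diet (adjusted p = 6.4e-06) and -0.69 ± 0.22 for quercetin minus Western diet (adjusted p = 0.14). Itgax (CD11c) and Cd68 rose by 2.18 ± 0.34 and 2.52 ± 0.35 in Western mice, and Csf1, the growth factor of macrophages, had a value of -0.16 ± 0.15 (adjusted p = 0.51). Its receptor Csf1r rose by 0.84 ± 0.16 (adjusted p = 0.00043).

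Across the mice of 1 diet, 3 cell cycle genes were set against Adgre1, which gave 9 relations with two-sided exact permutation tests. Mki67 followed Adgre1 in quercetin mice (r = 0.82, p = 0.0044, adjusted over the 9 relations p = 0.0083; rho = 0.88, p = 0.0031, adjusted p = 0.020; exact permutation, n = 9). In Western mice r was 0.94 (p = 0.00062, adjusted p = 0.0056) and rho 0.80 (p = 0.014, adjusted p = 0.031), by the same exact permutation test. In control mice r was 0.65 (p = 0.056, adjusted p = 0.063) and rho 0.48 (p = 0.19, adjusted p = 0.21), by the exact permutation test.

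By Pearson's r, 7 of the 9 relations had an adjusted p under 0.05, and by Spearman's rho 6 of 9. Adgre1 and these cell cycle genes were read on the same arrays and share their normalization. The genes were also those that followed the rest of the list most closely (r = 0.95 for Top2a, 0.93 for Mcm5 and Mki67). The 9 relations therefore do not stand independently of each other, and no gene that followed the list weakly was set against Adgre1. For Top2a, r was 0.84 in quercetin mice, 0.85 in Western mice and 0.36 in control mice, with adjusted p values of 0.0083, 0.0083 and 0.35, and rho was 0.87, 0.73 and 0.47 (exact permutation). For Mcm5, r was 0.81 in quercetin mice, 0.89 in Western mice and 0.75 in control mice, with adjusted p values of 0.017, 0.0083 and 0.025, and rho was 0.77, 0.83 and 0.63 (exact permutation). Without the 2 mice farthest from the median of Adgre1, r for Mki67 was 0.75 in quercetin mice, 0.88 in Western mice and 0.15 in control mice, for Top2a 0.79, 0.65 and 0.17, and for Mcm5 0.77, 0.82 and 0.36. In control mice r thus fell for all 3 genes when control mice 1 and 3 were left out, of which mouse 3 held the lymph node signal. Leaving out the mice farthest from the median also narrows the range of Adgre1, so the fall cannot show what the relation rested on. Control mouse 6, with its testis signal, was kept in these relations, and no value without it is given. In Western mice the pair left out was mice 4 and 6, whose liver marker means of 10.98 and 9.97 were the highest of all arrays, and only 5 Western arrays were not high in liver markers, and no relation was computed within so few.

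**Figure D5:**
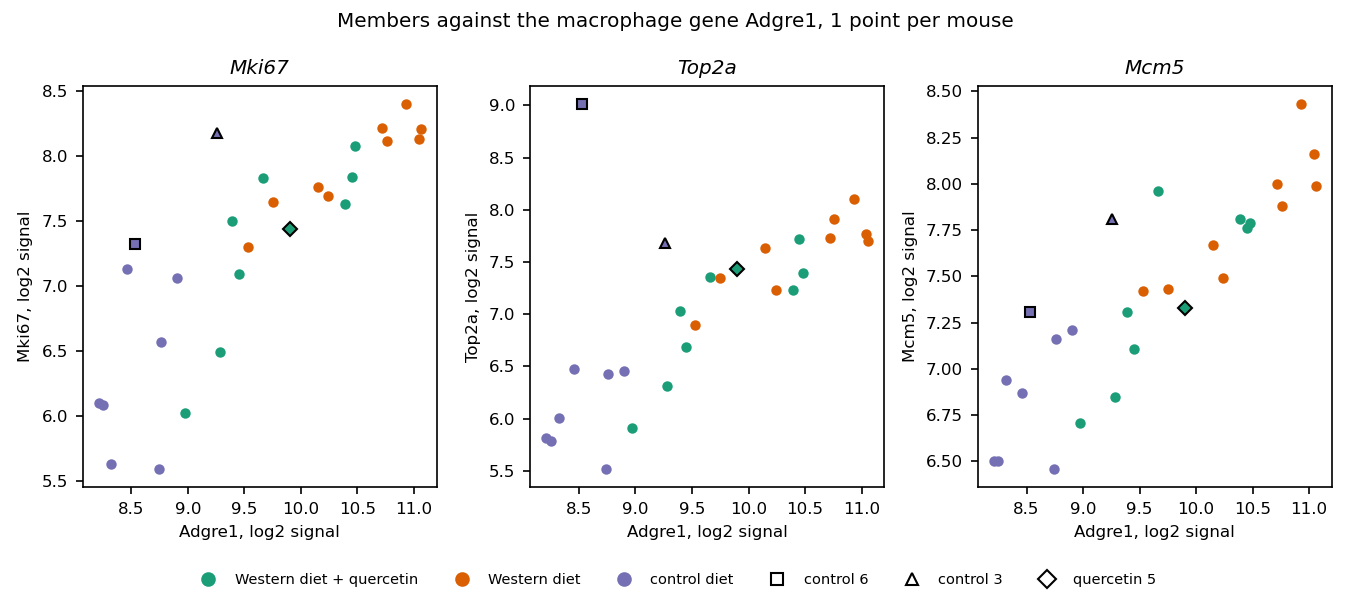
Log2 signal of Mki67, Top2a and Mcm5 against the log2 signal of Adgre1, 1 point per mouse, coloured by diet, with control 3, control 6 and quercetin 5 as black-edged shapes. Points rise from left to right within the quercetin and the Western mice, and control mouse 6 lies far above the other control mice for Top2a, at 9.01 with Adgre1 at 8.53.

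Other genes of the pathway were read from lists that hold no gene of the 36. Over all genes, 11.3% were higher and 6.42% lower in Western than in control mice. Without the 3 arrays, these shares were 12.9% and 11.4%. At an unadjusted p under 0.05 (limma), 1327 of the 18193 genes were higher in quercetin than in Western mice and 1170 lower. Without the 3 arrays, these were 1698 and 1442. These shares and counts stand beside every list below. Of 72 further mitosis genes, 22 were higher and 2 lower in Western than in control mice on all arrays, with a median log2 fold change of 0.62, and 52 were higher and 2 lower without the 3 arrays, with a median of 0.96. Gtse1, a protein of microtubule tips in G2, rose by 1.77 ± 0.36 (adjusted p = 0.001), while Pttg1 (securin) fell by 0.39 (adjusted p = 3.5e-05) and Cks1b, a partner of cyclin-dependent kinases, fell by 0.29 (adjusted p = 0.0025). Between quercetin and Western mice none of the 72 passed (limma, at an unadjusted p under 0.05, 2 were higher and 10 lower, and 2 and 31 without the 3 arrays), with a median of -0.38, and the smallest p values were those of Fbxo5 (-0.47 ± 0.17, adjusted p = 0.18), Spc24 (-0.83 ± 0.30, adjusted p = 0.19) and Mad2l1 (-0.56 ± 0.20, adjusted p = 0.19).

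Of 39 further genes of replication origins and forks, 8 were higher and 1 lower in Western mice, with a median of 0.14, and 15 were higher and 2 lower without the 3 arrays. Tk1, thymidine kinase of S phase, averaged 5.47 ± 0.87 in quercetin mice, 6.57 ± 0.41 in Western mice and 4.62 ± 0.63 in control mice (SD, n = 9 each). It rose by 1.95 ± 0.30 in Western mice (SE, adjusted p = 6.5e-05), and quercetin minus Western diet was -1.10 ± 0.30 (adjusted p = 0.093). Fen1, the nuclease that trims Okazaki fragments, and Mcm10, which helps the fork to fire, rose by 0.86 ± 0.16 and 0.88 ± 0.19 in Western mice. None of the 39 passed between quercetin and Western mice (limma, 2 higher and 8 lower at an unadjusted p under 0.05). Rfc5, a subunit of the clamp loader, had the smallest p (-0.43 ± 0.11, adjusted p = 0.082), and Orc2, of the origin recognition complex, was at 0.31 ± 0.09 (adjusted p = 0.12).

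Regulators were read in 3 lists, beside shares of 11.3% higher and 6.42% lower over all genes, and counts of 0 to 3 genes in lists this short are no result about the lists. Of 21 E2F, MYB and DREAM regulators, 3 were higher and 2 lower in Western mice (4 and 3 without the 3 arrays), with a median of 0.18. The E2F factors E2f1 and E2f8 rose by 0.81 ± 0.16 (adjusted p = 6e-04) and 1.30 ± 0.29 (adjusted p = 0.0023), and Tfdp2, a partner of E2F factors, fell by 0.35 (adjusted p = 0.0019). Of 8 cyclins and kinases of G1 phase, Cdk6 and Ccne1 rose, by 0.81 ± 0.17 (adjusted p = 0.0013) and 0.71 ± 0.21 (adjusted p = 0.018), and 0 were lower (2 higher and 1 lower without the 3 arrays). Of 17 inhibitors and arrest genes, 2 were higher and 2 lower with a median of 0.00, and 4 were higher and 4 lower without the 3 arrays. Among these Cdkn1c (p57) fell by 0.67 (adjusted p = 0.0028) and Cdkn2c (p18) fell by 0.45 (adjusted p = 0.0069), and Ccng1, a target of p53, rose by 0.45 ± 0.11 (adjusted p = 0.0063). Between quercetin and Western mice 0 genes of these 3 lists passed (limma, at an unadjusted p under 0.05, 0 were higher in each list, and 3, 1 and 1 were lower), and the smallest p values were those of E2f8 (-0.87 ± 0.29, adjusted p = 0.15), Cdk6 (-0.54 ± 0.17, adjusted p = 0.13) and Gas1, a gene of growth arrest (-0.40 ± 0.16, adjusted p = 0.24).

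Of 21 growth factors and receptors, 6 were higher and 0 lower in Western mice, with a median of 0.00, and 5 were higher and 1 lower without the 3 arrays. The receptor genes Csf2ra and Csf3r, for growth factors of myeloid cells, rose by 1.34 ± 0.23 (adjusted p = 0.00016) and 0.72 ± 0.18 (adjusted p = 0.0064). Between quercetin and Western mice 0 passed (limma, 1 higher and 5 lower at an unadjusted p under 0.05), and Fgf10, a growth factor of adipocyte progenitors, was at 0.42 ± 0.14 on the log2 scale (adjusted p = 0.14). Markers of fat progenitors and fibroblasts were higher for 5 of 11 genes and lower for 0 in Western mice, and T and NK cell markers for 1 of 14 and 0, beside the 11.3% and 6.42% of all genes. Without the 3 arrays, these were 4 of 11 and 0, and 4 of 14 and 0.

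RNA quality moved with the diets too. The log2 ratio of 3′ to 5′ signal of the actin control probes averaged 1.16 ± 0.17 in quercetin mice, 0.81 ± 0.09 in Western mice and 1.05 ± 0.23 in control mice (SD, n = 9 each). The difference was 0.35 for quercetin minus Western diet (two-sided exact permutation p = 8.2e-05) and -0.24 for Western minus control diet (two-sided exact permutation p = 0.0067). The Gapdh ratio differed the same ways, by 0.24 (exact permutation p = 0.0059) and -0.19 (exact permutation p = 0.047). Its part in the cell cycle values was not tested. The genes with several probe sets, 25 of the 35, gave both signs for Western minus control diet in 5 cases (Mcm6, Rrm1, Tyms, Bub1b and Kif11), and for quercetin minus Western diet in 12.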

How the data were processed

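The deposited table holds linear signal intensities of 45101 probe sets, which the authors made with MAS5 and GeneSpring and did not scale between arrays (median signal per array 25.2 to 54.4). The signals were quantile normalized, values under 1 were set to 1, and log2 was taken. The 64 control probe sets and 932 probe sets of several genes were left out, and 9160 had no gene in the annotation. Genes were tested with limma 3.58.1 in R 4.3.3 (1 mean per diet, variance trend, Benjamini-Hochberg over 18193 genes, adjusted p under 0.05). Permutation tests used Python 3.11.15. The number of arrays limits the precision.

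The members and lists were chosen with earlier results of these data known. Of each of the 5 role groups, the 3 genes with the smallest p over the 3 diets were described in full, and of each pathway list up to 3 genes with the smallest p in each of the 2 comparisons; Mcm5 and Bub1 were added after their values were seen. The code was tested on simulated data. The tests were repeated on the signals as deposited and with arrays shifted to 1 median, on a 32-unit floor or with 16 added before log2, on brighter genes only (above the median), on averages over a gene's probe sets, without the trend, with weights for arrays, by the methods' own test, with 2 diets at a time, with a block for replicate numbers, and with arrays left out singly or for their testis, lymph node or liver markers. Leaving out the arrays high in meiotic or liver markers was chosen after seeing the data. In the methods' own test, a pair of diets passed where both the adjusted Welch ANOVA p and the Tukey p were under 0.05. The p printed for it is the larger of these, and the Welch ANOVA p is over all 3 diets. Since the Tukey p was not adjusted over genes, its counts do not compare directly with those of limma.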

Additional observations from a re-analysis of the deposited data

Results flagged for a closer look

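For each of the 35 cell cycle genes and for Adgre1, Itgax, Cd68 and Csf1, the highest and lowest of the 9 mice of each diet were compared with the next mouse, and a gap, as a share of the range of the group, above Dixon's limit for 9 values was noted. Chance alone gives this in about 1 in 20 groups, and 14 of 117 groups had it. Of the 14, 10 were high values of control mouse 6. Its level was 10.38 for Mcm7 (next 9.59), 9.88 for Ccnb2 (next 6.39), 10.79 for Cdc20 (next 7.27), 9.53 for Aurka (next 5.80) and 8.07 for Plk1 (next 5.51). It was 7.90 for Ttk (next 4.70), 8.38 for Birc5 (next 6.26), 7.95 for Kif20a (next 5.05), 8.21 for Nusap1 (next 6.38) and 7.99 for Cenpe (next 5.02).

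The other 4 were spread over genes and mice. Control mouse 3 was at 8.09 for Mcm6, against 7.44 in the next control mouse. Western mouse 2 was at 0.21 for Tyms (next 2.91), Western mouse 9 at 4.65 for Foxm1 (next 5.63) and Western mouse 4 at 4.44 for Kif11 (next 5.16), each the lowest of its diet.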

How the results depend on the processing

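On all arrays, 14 cell cycle genes were higher in Western than in control mice, and 13 to 28 were with each array left out in turn, 28 being the number without control mouse 6. The number was 26 with array weights, 9 with the test of the methods, 24 without arrays high in haploid testis markers, 29 without those or lymph node arrays, 29 without arrays high in meiotic testis or lymph node markers, 29 without those high in meiotic testis markers alone and 8 without those high in liver markers. Between 0 and 1 gene (Mcm7) was lower with an array left out (without control 1, 2, 3 or 7 or Western 7), and 1 among genes above the median mean. For quercetin minus Western diet, 0 genes were lower on all arrays, 0 to 3 with an array left out (3 without quercetin 8, 2 without control 3 or control 6, 1 without control 8, control 9, Western 4, quercetin 7 or quercetin 9), 1 with a pseudocount of 16, 3 among genes above the median mean, 5 with array weights, 5 with the test of the methods, 3 with only 2 diets, 2 without meiotic or lymph node arrays and 1 without meiotic arrays. For quercetin minus control diet, 0 were higher on all arrays and 0 to 3 with an array left out (3 without control 3, 2 without control 6 or quercetin 3, 1 without quercetin 6), 2 with array weights, 2 with the test of the methods, 1 with a replicate block, 2 and 20 without haploid testis arrays alone or with lymph node arrays, and 10 and 2 without meiotic arrays with or without lymph node arrays. Over the 3 diets, 13 genes passed, 8 to 26 with an array left out (8 without control 5 or Western 7, 26 without control 6), 6 without normalization, 26 with array weights, 20 and 28 without haploid testis arrays alone or with lymph node arrays, 29 and 26 without meiotic arrays with or without lymph node arrays, and 6 without liver arrays. The causes were not tested. The share over all genes shifts with the setting too. For quercetin minus Western diet, 15 of the 18193 genes were lower on all arrays and 96 without control mouse 6. For most of these settings that share is not given. The counts thus describe how the calls depended on the processing and are no result about the list. The medians of the 35 genes kept their signs in every setting. Of the 15 genes described in full, Rrm1 turned its sign for quercetin minus Western diet, 0.02 with the mean of all probe sets. That mean also turned 4 other genes of the 35 in this comparison, Mcm2 (-0.22), Mcm4 (-0.09), Mcm7 (-0.02) and Foxm1 (-0.19), and Tyms (0.38) and Aurka (-0.15) for Western minus control diet, and none of these had passed on all arrays. Same-numbered mice correlated above 0.1 in 4 of 9 pairs of Western and control mice, 5 of 9 of quercetin and Western mice and 1 of 9 of quercetin and control mice. Differently numbered mice were not compared, so these values cannot decide whether the replicate numbers pair the mice. With a replicate block 14 genes were higher in Western than in control mice. Of the 35 genes, 19 lay at or under the median signal of all genes, where background limits the precision.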
